A study of Mus musculus with 5 samples.

Results

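The chemokine receptors CCR7 and CCR4 and their ligands CCL19, CCL21, CCL17, and CCL22 were followed as 6 mouse genes, Ccr7, Ccl19, Ccl21a, Ccl17, Ccl22, and Ccr4. All 6 were found by gene symbol and Ensembl identifier among the 32285 gene features of the tumor-draining lymph node (TDLN) matrices and the 33696 gene features of the MC38 tumor matrices, and the rule that lists them by symbol reads no measured value. scRNA-Seq of 5 reactions with the 10x 5′ chemistry gave 3 TDLN reactions and 2 MC38 tumor reactions. Male C57BL/6J mice of 8 to 10 weeks of age carried s.c. TRAMP-C2 prostate tumors (the TDLN reactions) or MC38 colon tumors (the tumor reactions). Isotype antibody or checkpoint inhibition (CPI, the antibody pair against CTLA4 and PD-1) was given on days 3, 6, and 9, then DPBS vehicle or 20 mg/kg of the JAK inhibitor ABT-317 on day 12, and tissue was taken on day 15. Nodes were pressed apart between slides and loaded unsorted, whereas tumors were digested with collagenase and their sorted CD45+ and CD45– cells were mixed 1:1, so tumor shares of cell types were set by the sort. The study's methods count these days from implantation, while its MC38 figure counts them from enrollment at a set tumor volume. Tissue, tumor line, dissociation, and the Cell Ranger release named in the file headers differed together and cannot be told apart in any comparison of TDLNs with tumors. The mix of treatments may differ as well, since TDLN barcodes could not be assigned to treatments. By the hashtag key, each MC38 reaction pooled 4 treatments and each TDLN reaction 3 (isotype, CPI, and CPI + ABT-317). Each treatment group held several mice, but the key ties hashtags to treatments and not to single mice. P values therefore measure the spread between pooled sums, which may be technical.

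CCR7 brings naive T cells, B cells, and mature dendritic cells (DCs) into lymph nodes and their T cell zones. Its ligands are CCL19, made by reticular stroma and in some settings by DCs, and CCL21, whose Ccl21a copy is made by reticular and lymphatic endothelial cells in the mouse. CCR4 is a receptor of Tregs and other memory or effector CD4 T cells, and its ligands CCL17 and CCL22 are produced above all by DCs.

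After filters, 62571, 56509, and 7050 TDLN barcodes and 18919 and 16336 MC38 barcodes were kept, with medians of 1713 to 1905 UMIs in TDLNs and of 5431 and 7311 UMIs in tumors. Most TDLN barcodes did not resolve into a cell type: 93.3% fell in clusters that mixed lineages, in which 49.8% of barcodes held both Cd3e, a T cell gene, and Cd79a, a B cell gene. Named TDLN classes were therefore small, with 2454 T-like, 1004 B-like, 28 mature DC-like, and 25 NK-like barcodes. TDLN hashtag counts were 0 throughout, so treatments were separated in MC38 tumors only. Pairs of TDLN reactions shared 8.17% to 8.57% of the barcodes of the smaller reaction, and the MC38 reactions shared 2.66%. Clusters were built without the 6 genes and named from marker lists. Mature DC-like clusters held 11 of 12 mature DC markers (TDLN) and 12 of 12 (MC38) at 1.5 times their level elsewhere or more, and Treg-like clusters 7 of 7 in both tissues. The naive T-like label rested on less, with 5 of 9 naive markers above the other TDLN T-like cells by that margin. Levels are CPM, from the UMIs of a gene and of all genes summed over a class in 1 reaction. Intervals are exact 95% intervals and cover counting error only. A class is a cluster of the same cells, so differences between classes are descriptions with no test.

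The ligand genes lie in a pair of neighborhoods on GRCm38. Ccl22 (chr8:94745590-94751699, plus strand) and Ccl17 (chr8:94810453-94812036, plus strand) were 58753 bases apart, and Ccl19 (chr4:42754525-42756577, minus strand) and Ccl21a (chr4:42772860-42773993, minus strand) were 16282 bases apart. Ccr7 (chr11:99144196-99155077) and Ccr4 (chr9:114490316-114504916), both on the minus strand, lie alone. Upstream sequence is shown for the Ccl22 and Ccl17 neighbors, whose UMIs, pooled over reactions, were carried in different proportions by different DC clusters. It is also shown for Ccl21a, whose tumor UMIs lay almost entirely in a few barcodes. The sequences (RefSeq, GRCm38.p6, gene strand, ending at the base before the first annotated start) are Ccl22 chr8:94745434-94745589, Ccl17 chr8:94810203-94810452, and Ccl21a chr4:42773994-42774241. Capitals mark a match to TTCNNNGAA, the spaced palindrome that STAT factors are known to bind.
Ccl22: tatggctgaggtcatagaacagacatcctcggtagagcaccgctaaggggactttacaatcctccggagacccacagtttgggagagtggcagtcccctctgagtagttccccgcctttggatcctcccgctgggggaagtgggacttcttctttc
Ccl17: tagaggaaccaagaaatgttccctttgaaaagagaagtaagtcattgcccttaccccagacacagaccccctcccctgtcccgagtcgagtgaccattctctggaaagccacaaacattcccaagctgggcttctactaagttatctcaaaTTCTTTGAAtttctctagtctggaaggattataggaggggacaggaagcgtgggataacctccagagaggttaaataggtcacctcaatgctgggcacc
Ccl21a: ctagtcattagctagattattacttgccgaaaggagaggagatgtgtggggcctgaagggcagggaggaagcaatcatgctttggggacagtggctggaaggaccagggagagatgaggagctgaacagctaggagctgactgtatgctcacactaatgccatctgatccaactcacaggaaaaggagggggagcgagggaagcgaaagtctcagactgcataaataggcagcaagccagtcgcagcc

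RefSeq promoters were at hand for 5 of the 6 genes. In the 250 bases before the RefSeq start, TTCNNNGAA was found once, in Ccl17 as TTCTTTGAA, 99 to 91 bases before the start. Both strands of 32851 promoters were searched, and 2306 of them (7.02%) held this motif in the same window. The other 4 promoters held no match. These are matches of letters only.

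Ccr7 was by far the most abundant of the 6 genes in TDLNs and a rare gene in tumors. Over whole reactions it reached 788 to 896 CPM in TDLNs, with 202943 UMIs in all, and 1.26 to 1.45 CPM in MC38 tumors, with 555 UMIs. Ccr4 was at 4.78 to 6.18 CPM in TDLNs and 0.0815 to 0.104 CPM in tumors. Ccl22 was at 3.54 to 4.90 CPM in TDLNs and 0.833 to 1.28 CPM in tumors, and Ccl17 at 0.443 to 0.874 and 0.290 to 0.579 CPM. Ccl19 (0.283 to 0.675 CPM in TDLNs, 0.371 to 0.428 in tumors) and Ccl21a (0 to 0.247 and 0.0104 to 0.371 CPM) stayed under 1 CPM in every reaction of both tissues. The tumor gene list also held Ccl19-ps2, a near copy with 337 UMIs against 164 of Ccl19. The TDLN list had no entry of that name, so Ccl19 was counted against different gene sets. Over a whole reaction, fewer cells of a type and less RNA per cell cannot be told apart.

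In TDLNs, Ccr7 was found at high level in nearly every class. Naive T-like cells held 826, 936, and 987 CPM in reactions 1 to 3, a mean of 916 CPM (SD 82.4, n = 3 reactions). B-like cells held 786, 969, and 1259 CPM, Treg-like cells 709, 814, and 1468 CPM, and CD8 effector-like cells 728, 719, and 922 CPM. The reaction 3 values of the Treg-like and CD8 effector-like classes came from 4 and 3 barcodes. The ranges of these 4 lymphocyte classes overlapped between reactions. Within each reaction, naive T-like and B-like cells stood above CD8 effector-like cells, whereas the order of every other pair changed between reactions. Mature DC-like cells stood above them, at 1769 CPM (95% interval 1340 to 2292) from 6 barcodes in reaction 1 and 2472 CPM (2183 to 2788) from 22 barcodes in reaction 2, and reaction 3 had no such barcode. The lowest named classes were the T cells led by Il23r, at 414, 253, and 767 CPM from 24 barcodes in all, and NK-like cells, at 197 and 325 CPM with 0 of 1627 UMIs in reaction 3, where 3 counts would be 1844 CPM.

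No TDLN class was free of Ccr7, so no class gave a background near 0. The mixed clusters carried 858 to 1045 CPM where mature DC genes led and 788 to 894 CPM in the largest mixed class, and these held 5.91% and 88.5% of all Ccr7 UMIs, against 5.36% and 87.5% of all barcodes. With each barcode thinned to 1000 UMIs and shallower barcodes left out (104 of 1886 naive T-like), 54.3% of naive T-like barcodes had a Ccr7 UMI, against 54.4% of B-like, 49.2% of CD8 effector-like, 43.1% of Treg-like, 36.4% of NK-like, and 78.6% of mature DC-like barcodes. The unthinned share in naive T-like cells was 74.7%, and that in the 24 T cells led by Il23r was lower, at 37.5% (18.8 to 59.4). NK cells are the least known for CCR7 among these classes, and their thinned share had an interval of 17.2% to 59.3%, which held the shares of the naive T-like, B-like, CD8 effector-like, and Treg-like classes. By level over 3 reactions, NK-like cells held 283 CPM (175 to 432) and Treg-like cells 797 CPM (735 to 862), with intervals that did not overlap. Although NK-like cells by level and the T cells led by Il23r lay lower, Ccr7 RNA outside the cells that made it was not separated from low expression in TDLNs.

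In MC38 tumors, Ccr7 was concentrated in a small cluster of mature DC-like cells. This class was 32 barcodes, 0.0908% of those kept, and held 41.6% of the Ccr7 UMIs. Its level was 2013 CPM (1651 to 2430, 108 UMIs in 17 barcodes) in reaction 1 and 2703 CPM (2246 to 3225, 123 UMIs in 15 barcodes) in reaction 2, and 30 of the 32 barcodes had at least 1 Ccr7 UMI. The intervals of both reactions overlapped those of the mature DC-like cells of TDLNs. A cluster led by Ifitm1, Il1r2, MHC class II genes, and Mgl2, here called MHC-II DC B, followed at 188 and 116 CPM. Its neighbor MHC-II DC A, led by Ifitm1, Il1r2, MHC class II genes, and Klrd1, had 0 UMIs in 149983 and 22.2 CPM. Il1r2 is also on the neutrophil marker list, so the names of both clusters rest on part of their leading genes. The cDC1-like cells had 27.3 CPM and 0 UMIs in 41836. In C1q macrophage-like cells, which should lack the gene, the level was 0.663 and 0.254 CPM.

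Tumor T-like cells carried little Ccr7. Treg-like cells held 221 CPM (123 to 364, 15 UMIs) and 64.4 CPM (17.5 to 165, 4 UMIs), T cells led by Nkg7 held 24.4 and 7.94 CPM, and T cells led by Tnfsf11 held 18.5 and 13.3 CPM from 1 UMI each. After thinning, 72.4% of mature DC-like, 9.76% of MHC-II DC B, 6.45% of Treg-like, and 1.68% of Nkg7 T barcodes had a Ccr7 UMI, against 0.0686% of C1q macrophage-like barcodes. Il1b macrophage-like cells had a Ccr7 UMI in 27 of 4665 barcodes (0.579%), and 7 barcodes with at least 5 UMIs each held 48 of their 73 UMIs.

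**Figure D1:**
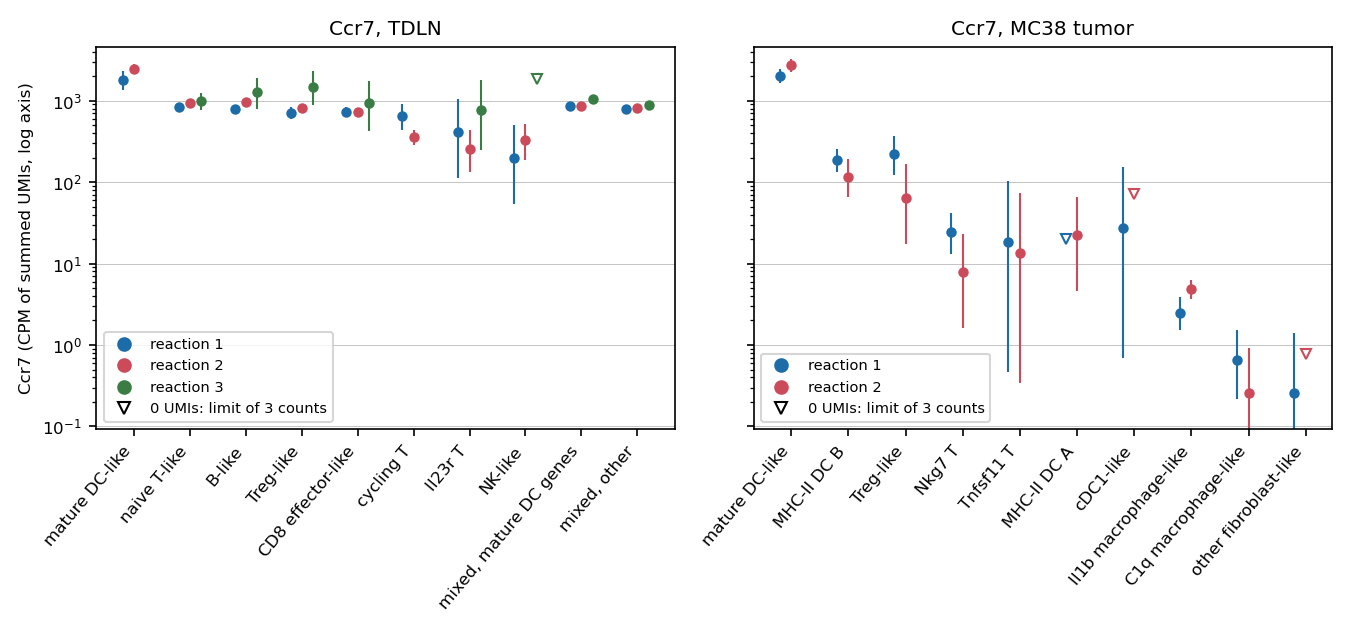
Ccr7 level by class in TDLNs (left) and MC38 tumors (right), in CPM of UMIs summed over the class on a log axis. Points are single reactions (blue 1, red 2, green 3) with exact 95% Poisson intervals, cut at the axis limit, and open triangles mark classes with 0 UMIs at the level of 3 counts. Mature DC-like cells lie between 1769 and 2703 CPM in both tissues, whereas T-like classes lie at 253 CPM or more in TDLNs and at 221 CPM or less in tumors.

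The question of whether T cells differ in Ccr7 between node and tumor was tested on sums over all T-like barcodes of a reaction, with edgeR's quasi-likelihood test and Benjamini-Hochberg adjustment over all genes tested. T-like cells of TDLNs held 793, 853, and 1027 CPM of Ccr7 and those of MC38 tumors 44.3 and 15.5 CPM, with no overlap. Ccr7 was higher in TDLNs by 4.89 on the log2 scale (SE 0.31, n = 3 and 2 reactions, adjusted p = 1.45e-12). It was the only one of the 6 genes with enough UMIs to be tested, and 32.9% of the 7483 genes tested passed the threshold of 0.05, with 13.9% of those tested called higher in TDLNs. Leaving out 1 reaction at a time kept the difference between 4.39 and 5.86. The T-like sums of TDLNs were mostly naive T-like barcodes (1886 of 2454) and no tumor cluster was named naive, so a different mix of T cells and a different level per cell cannot be told apart here. Most tumor T-like barcodes (499 of 555 and 383 of 448) carried the CPI hashtag, while the treatments of the TDLN barcodes are unknown. The TDLN values also lay close to the 788, 824, and 896 CPM of the whole reactions, and Ccr7 RNA from outside the cells cannot be told apart from their own.

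Sums over Treg-like barcodes, which compare 1 T cell type between tissues, also held more Ccr7 in TDLNs. TDLN Treg-like sums held 709 and 814 CPM and MC38 sums 221 and 64.4 CPM, a log2 difference of 2.44 (SE 0.35, n = 2 and 2, edgeR adjusted p = 1.41e-07, with 22.0% of 2714 genes called and 9.99% called higher in TDLNs). TDLN reaction 3 was left out of this fit because it had 4 Treg-like barcodes. Ccr7 passed the filter on low counts only through the TDLN sums, where it was high, so its call gives no independent support. The TDLN sums did not exceed the 788 and 824 CPM of their whole reactions, so the part of Ccr7 RNA from other cells in this difference cannot be told apart from Treg expression. The size depended on the tumor reactions, at 3.62 without MC38 reaction 1 (4 Ccr7 UMIs in the remaining sum) and 1.83 without MC38 reaction 2. Barcodes gated on any 3 Treg markers in place of clusters gave 5.45. The gated MC38 sums were 92 and 101 barcodes with 1057577 and 1440090 UMIs. The clustered MC38 sums were 45 and 34 barcodes with 67850 and 61971 UMIs, so the gate compared largely other barcodes.

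In mature DC-like cells, as clustered, Ccl22 was lower in TDLNs, a lower value of Ccl17 rested on 1 barcode, and no difference in Ccr7 was detected. Ccr7 differed by 0.30 on the log2 scale (SE 0.45, edgeR adjusted p = 0.739). Ccl22 was lower in TDLNs by a log2 value of -2.49 (SE 0.51, adjusted p = 5.42e-05), with 345 CPM in the TDLN sum and 2404 and 2153 CPM in the MC38 sums. Ccl17 was lower by -2.81 (SE 0.62, adjusted p = 1.58e-04), with 56.0 CPM against 261 and 703 CPM. Both were among the 14.3% of 1165 genes called and the 7.21% called lower in TDLNs. The TDLN group was 1 sum of 22 barcodes, assumed to vary like the others, since reaction 1 had 6 barcodes and reaction 3 none. Ccl17 passed the filter on low counts only through the MC38 sums, where it was high, so its call gives no independent support. The 6 barcodes of TDLN reaction 1, outside the fit, held 186 CPM of Ccl22 and 31.0 CPM of Ccl17, also below both tumor reactions. The Ccl17 call rested on 1 barcode: without the barcode richest in these genes (CPI hashtag, reaction 2, 6009 UMIs, of which 48 were Ccr7, 62 Ccl22, and 24 Ccl17), Ccl17 differed by -1.80 (adjusted p = 0.187) and Ccl22 by -2.05 (adjusted p = 0.000812). DESeq2 also gave Ccl22 (-2.49, adjusted p = 0.000449) but not Ccl17 (-2.88, adjusted p = 0.126), with 7.74% of the genes it tested called. A gate on any 3 mature DC markers in place of clusters gave the opposite direction for Ccl22, but on mostly different barcodes. It took in 1888 and 2520 MC38 barcodes, against 17 and 15 in the cluster. Ccr7 in the gated MC38 barcodes was at only 3.33 and 2.16 CPM. By this gate Ccl22 was higher in TDLNs by 3.57 (edgeR adjusted p = 0.0237) and Ccr7 by 7.89 (adjusted p = 1.06e-23).

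**Figure D2:**
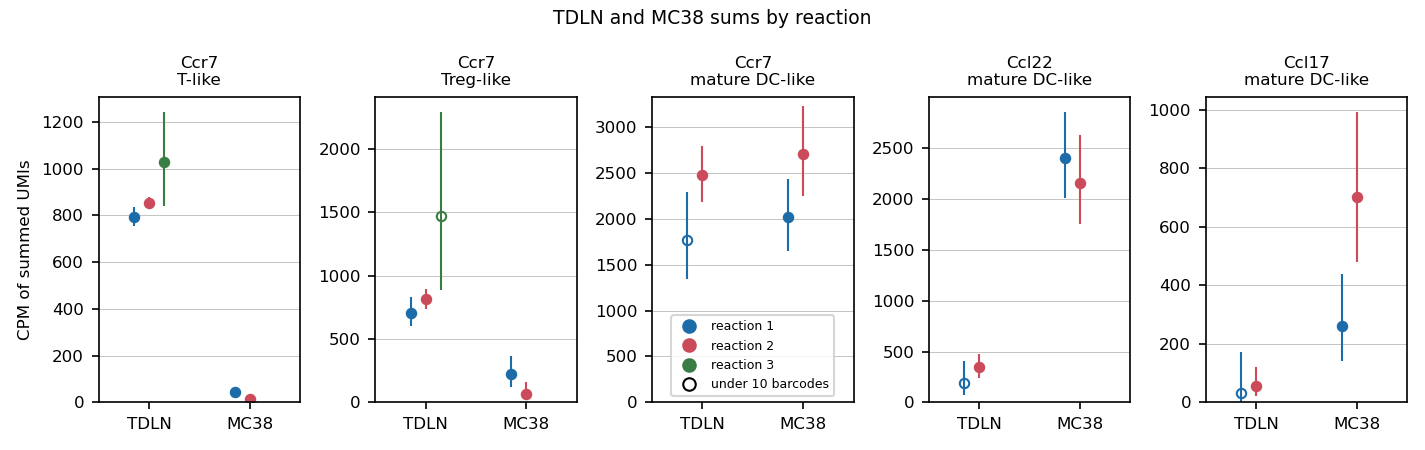
CPM of summed UMIs in TDLNs and MC38 tumors for Ccr7 in T-like, Treg-like, and mature DC-like cells and for Ccl22 and Ccl17 in mature DC-like cells. Points are reactions (blue 1, red 2, green 3) with exact 95% Poisson intervals, and open points are sums of under 10 barcodes, which entered no test. Ccr7 separates the tissues in T-like and Treg-like cells but not in mature DC-like cells, in which Ccl22 is at 186 and 345 CPM in TDLNs and at 2153 and 2404 CPM in tumors.

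Genes of lymph node entry and exit were counted beside Ccr7 in T-like cells, with the same edgeR threshold of 0.05. Of 5 such genes, all tested, 2 were higher in TDLNs: S1pr1, the exit receptor for sphingosine 1-phosphate (3.91, SE 0.27), and Klf2, a transcription factor that drives it (2.98, SE 0.24). Itgal, an integrin chain of LFA-1, was lower (-1.31, SE 0.21). S1pr1 and Klf2 are also on the naive T marker list, and most TDLN T-like barcodes were in the cluster named naive T-like. These calls are therefore not independent of that label. As for Ccr7, the mix of T cells and RNA from outside the cells cannot be told apart from the level per cell. Over all genes tested in T-like cells, 32.9% were called and 13.9% were called higher. The median of these 5 was 0.49, against 0.00 over all genes tested. In Treg-like cells S1pr1 (3.29, SE 0.53) and Klf2 (3.33, SE 0.42) were higher and no gene of the 5 was lower, with a median of 0.46 against 0.03 and with 22.0% of all genes called and 9.99% called higher. Of the 12 other genes of the CCR7 and CCR4 pathway, 2 could be tested in T-like cells, and Ccr8, a receptor of tumor Tregs, was lower in TDLNs (-2.09, SE 0.46, edgeR adjusted p = 0.00415). In Treg-like cells Ccr8 differed by -0.83 (adjusted p = 0.259). Of 8 genes of lymphotoxin and noncanonical NF-κB signaling, Lta was lower in T-like cells (-1.17, 1 of 5 tested), Ltb in Treg-like cells (-0.71, 1 of 4 tested), and Map3k14, the kinase NIK of the noncanonical pathway, in mature DC-like cells (-1.74, 1 of 5 tested). The shares of all genes called in these classes were 32.9%, 22.0%, and 14.3%, so these counts lie near or below the background. The list's medians were -0.48, -0.24, and -0.61, against 0.00, 0.03, and -0.03 over all genes tested.

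Ccl22, a CCR4 ligand, shared its main carrier in tumors with Ccr7. Mature DC-like cells held 129 and 98 Ccl22 UMIs, or 52.9% of all Ccl22 UMIs of the MC38 reactions, and 25 of the 32 barcodes had at least 1. MHC-II DC B held 137 and 54.3 CPM, MHC-II DC A 40.0 CPM and 0 UMIs, and cDC1-like cells 54.7 CPM and 0 UMIs. Il1b macrophage-like cells were far lower per UMI, at 2.23 and 4.21 CPM, but were 13.2% of barcodes and held 14.9% of the Ccl22 UMIs. Thinning left 65.5% (45.7 to 82.1) of MC38 mature DC-like barcodes with a Ccl22 UMI and 35.7% (18.6 to 55.9) of those in TDLNs, against 0.0457% of C1q macrophage-like barcodes.

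In TDLNs, Ccl22 was highest in mature DC-like cells and in the mixed cluster led by mature DC genes. Named T, B, and NK classes of TDLNs held 0 Ccl22 UMIs, which in naive T-like cells allows up to 2.28, 0.943, and 40.6 CPM. Mature DC-like cells had 6 and 37 UMIs and held 4.01% of the TDLN Ccl22 UMIs. The mixed cluster led by Apol7c, Fscn1, and Cacnb3, which are mature DC genes, had 22.5, 25.5, and 28.5 CPM, against 2.82, 3.25, and 2.91 CPM in the largest mixed class. A mixed cluster with neutrophil genes held 16 Ccl22 UMIs in 589 barcodes, at 2.52 and 17.2 CPM and 0 UMIs in reactions 1 to 3. After thinning, 2.35% of barcodes of the mature DC mixed cluster, 1.72% of the neutrophil mixed cluster, and 0.282% of the largest mixed class had a Ccl22 UMI. The mixed cluster led by mature DC genes was 5.36% of barcodes and held 31.2% of the Ccl22 UMIs and 37.7% of the Ccl17 UMIs. Ccl17 there was at 5.81, 5.10, and 4.07 CPM, against 0.503, 0.570, and 0.349 CPM in the largest mixed class.

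Ccl17, the other CCR4 ligand, had a smaller part of its pooled tumor UMIs in mature DC-like cells than Ccl22 had, and was uneven within each DC cluster. The smaller part came from reaction 1, where mature DC-like cells held 14 of 111 Ccl17 UMIs and 129 of 245 Ccl22 UMIs. In reaction 2 they held 32 of 64 and 98 of 184, which are similar parts. The percentages that follow are over both reactions. MHC-II DC B held 29.7% of the 175 Ccl17 UMIs, mature DC-like cells 26.3%, Il1b macrophage-like cells 14.9%, and MHC-II DC A 11.4%, and cDC1-like cells had 0. Reactions disagreed, with 231 and 23.3 CPM in MHC-II DC B, 261 and 703 CPM in mature DC-like cells, and 107 and 29.6 CPM in MHC-II DC A. A single barcode held 52.2% of the Ccl17 UMIs of the mature DC-like class, 28.8% of those of MHC-II DC B, and 45.0% of those of MHC-II DC A. Of the 26 Ccl17 UMIs of Il1b macrophage-like cells, 21 were in 2 of their 4665 barcodes.

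Barcode by barcode, the DC clusters differed in how often they held the receptor and the CCR4 ligands. In the mature DC-like class of tumors, all 9 barcodes with Ccl17 also had Ccl22 and Ccr7, and 16 more had Ccl22 without Ccl17. In MHC-II DC A, none of the 9 barcodes with Ccl17 had Ccr7 and 7 of them had no Ccl22. In MHC-II DC B, 7 of 9 barcodes with Ccl17 had no Ccr7 and 5 of 9 had no Ccl22. Over all barcodes, Ccr7 was in 30 of 32 mature DC-like, 2 of 93 MHC-II DC A, and 15 of 86 MHC-II DC B barcodes. Ccl22 was in 25, 3, and 12 barcodes of these clusters. The Ccr7 counts among barcodes with Ccl17 lie near the shares of their whole clusters. In UMIs of Ccl22 and Ccl17, the mature DC-like class of tumors held 129 and 14 in reaction 1 (a ratio of 9.21) and 98 and 32 in reaction 2 (3.06), and 165 and 22 over both without its richest barcode (7.5). MHC-II DC B held 29 and 49 in reaction 1 (0.592) but 7 and 3 in reaction 2 (2.33), so that the order of its ligands differed between the reactions. MHC-II DC A held 6 and 16 in reaction 1 and 0 and 4 in reaction 2. In TDLNs, mature DC-like cells held 6 and 1 in reaction 1 and 37 and 6 in reaction 2. Median depth was similar in the 3 tumor clusters (2878, 3503, and 2937 UMIs for mature DC-like, B, and A). The clusters have 32, 86, and 93 barcodes from 2 pooled reactions, and barcodes are not replicates.

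**Figure D3:**
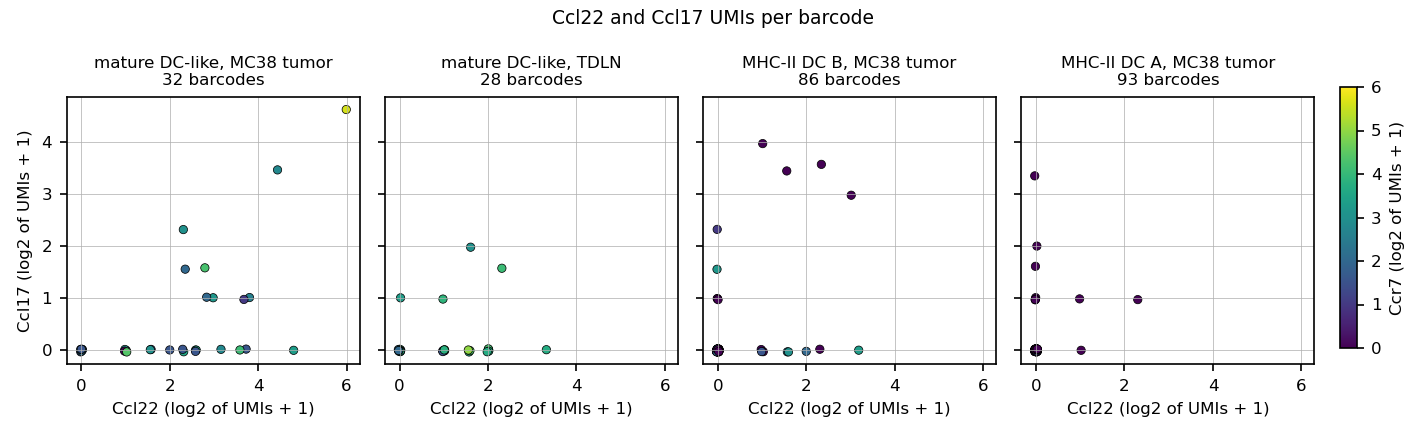
Ccl22 (x) and Ccl17 (y) UMIs per barcode, as log2 of UMIs + 1 with slight jitter, in the mature DC-like class of MC38 tumors (32 barcodes) and TDLNs (28) and in the clusters MHC-II DC B (86) and A (93), colored by Ccr7 UMIs on the same scale. Ccl22 and Ccr7 occur together in 23 of 32 mature DC-like barcodes of tumors and 17 of 28 of TDLNs, and of the barcodes with Ccl17, 9 of 9 in MHC-II DC A and 7 of 9 in MHC-II DC B carry no Ccr7. Over all barcodes, only 2 of 93 in MHC-II DC A and 15 of 86 in MHC-II DC B carry Ccr7.

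Ccl19, a CCR7 ligand, was a fibroblast gene in the tumors and was not found in DCs. It had 0 UMIs in mature DC-like cells of both tissues, which allows up to 30.3 CPM over the 99173 UMIs of the class in tumors and 21.5 CPM over the 139415 in TDLNs. The highest level was in fibroblast-like cells led by Mgp and Cxcl12, at 113 CPM (66.8 to 178, 18 UMIs) and 94.7 CPM (19 UMIs). The other fibroblast-like cells held 12.7 and 11.4 CPM and the cluster led by Rgs5 and Acta2, which are genes of mural cells, 16.5 and 11.2 CPM. Intervals of the Mgp Cxcl12 cluster did not overlap those of the other fibroblast-like and Rgs5 Acta2 clusters in either reaction, whereas the intervals of these latter clusters overlapped each other. By number, the other fibroblast-like cells held most Ccl19 UMIs (57.3%), followed by the Mgp Cxcl12 cluster (22.6%) and the Rgs5 Acta2 cluster (8.54%). After thinning, 10.7% of Mgp Cxcl12 barcodes and 1.55% of other fibroblast-like barcodes had a Ccl19 UMI, against 0.0229% of C1q macrophage-like barcodes. Ccl19-ps2, an annotated near copy, had more UMIs than Ccl19 in these tumors (337 against 164) and followed it over classes, and reads of one could have been counted to the other. In the Mgp Cxcl12 cluster, 15 of the 35 barcodes with Ccl19-ps2 also had Ccl19, against 9.09% of the others.

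Ccl21a, the second CCR7 ligand, was nearly limited to a few endothelial barcodes in the tumor reactions. Of its 84 UMIs, 80 (95.2%) were in 3 endothelial-like barcodes of reaction 2, with 37, 37, and 6 UMIs, all with the CPI hashtag. Each of these had UMIs of 3 to 5 of 6 lymphatic endothelial markers and of 4 to 6 of 7 blood endothelial markers. None of the 53 endothelial-like barcodes of reaction 1 had Ccl21a or 3 such markers, so the class level of 342 CPM in reaction 2 and 0 in reaction 1 came from those 3 barcodes. The other 4 UMIs were in 4 barcodes of other clusters with no lymphatic marker. Over all 57094 MC38 barcodes that passed the gene and mitochondrial filters, including those with several hashtags, 6 barcodes had at least 3 lymphatic markers and all 6 held Ccl21a, from 6 to 86 UMIs and 241 in all. The 13 other barcodes with the gene had 1 UMI each. Ccl21b and Ccl21d, copies of the gene, had 0 UMIs in the endothelial-like class.

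**Figure D4:**
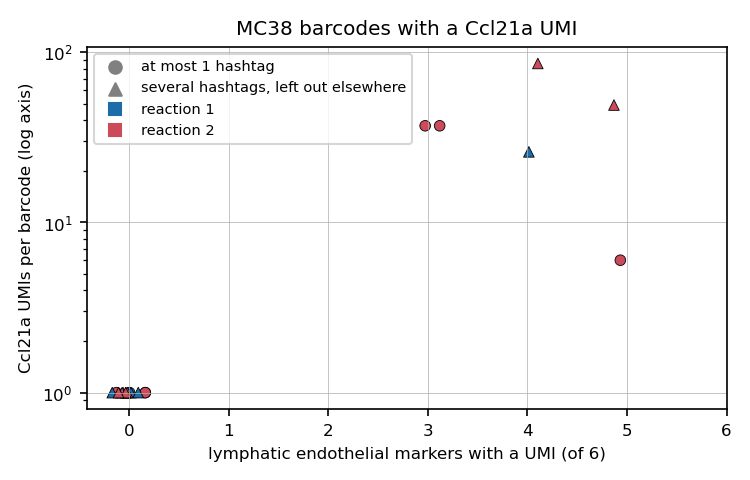
Ccl21a UMIs (log axis) in each of the 19 MC38 barcodes with the gene, by the number of 6 lymphatic endothelial markers with a UMI, with slight horizontal jitter. Circles are barcodes with at most 1 hashtag, triangles barcodes with several hashtags that were left out of the main levels, and color gives the reaction (blue 1, red 2). The 6 barcodes with 3 or more markers hold 6 to 86 UMIs, and the 13 others hold 1.

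In TDLNs, where CCL19 and CCL21 are known as products of the node's own stroma, both genes were scarce. Ccl19 had 117 UMIs and Ccl21a 43 among all TDLN barcodes, and 88.0% and 86.0% of these were in the largest mixed class, which was 87.5% of barcodes. Defining markers of the stroma were likewise near 0, with 8 of 8 fibroblast, 7 of 8 reticular, 6 of 7 blood endothelial, and 4 of 6 lymphatic endothelial markers under 1 CPM in every reaction. The TDLN cells were pressed out without digestion. No stromal class of TDLNs was available for either ligand. The TDLN gene list also held a second entry of Ccl19 (0 UMIs) and of Ccl21a (1 UMI), and Ccl21b and Ccl21c entries (0 UMIs). Whether reads shared by such near copies went uncounted was not tested.

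Ccr4, the receptor of Ccl17 and Ccl22, was a low gene, found in TDLNs at its highest UMI count per named class in Treg-like cells. Treg-like cells there held 48.2 CPM (23.1 to 88.7, 10 UMIs) and 48.5 CPM (32.0 to 70.6, 27 UMIs) in reactions 1 and 2 and 0 UMIs of 12947 in reaction 3. Naive T-like cells had 4.57 CPM (1.68 to 9.94) and 1.26 CPM (0.343 to 3.22), with intervals below those of the Treg-like class in both reactions, and 0 UMIs in reaction 3. Cycling T cells had 33.8 CPM (14.6 to 66.5) in reaction 2 and 0 UMIs in reaction 1, and their level did not differ from that of the Treg-like class beyond the counting error. After thinning, 4.60% of Treg-like and 0.0561% of naive T-like barcodes had a Ccr4 UMI, against 0.504% of the largest mixed class. Cycling T cells had 1 such barcode of 32 (3.13%, 0.0791 to 16.2), and the T cells led by Il23r 2 of 24 (8.33%, 1.03 to 27.0), with intervals that overlapped that of the Treg-like class (2.32 to 8.09). In tumors, 38 UMIs were found in all. The deep cluster led by Hmga1 held 17 (44.7%) and that led by Cmss1 held 6 (15.8%), at 0.0611 to 0.321 CPM. Another 3 were in T cells led by Tnfsf11 (39.9 CPM in reaction 2, 0 UMIs in reaction 1), 4 in Nkg7 T cells, and 1 in Treg-like cells (14.7 CPM, 0.372 to 81.9, and 0 UMIs in reaction 2). The Treg-like intervals of both tissues overlapped, and a difference in Ccr4 between them was not detectable at this depth.

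**Figure D5:**
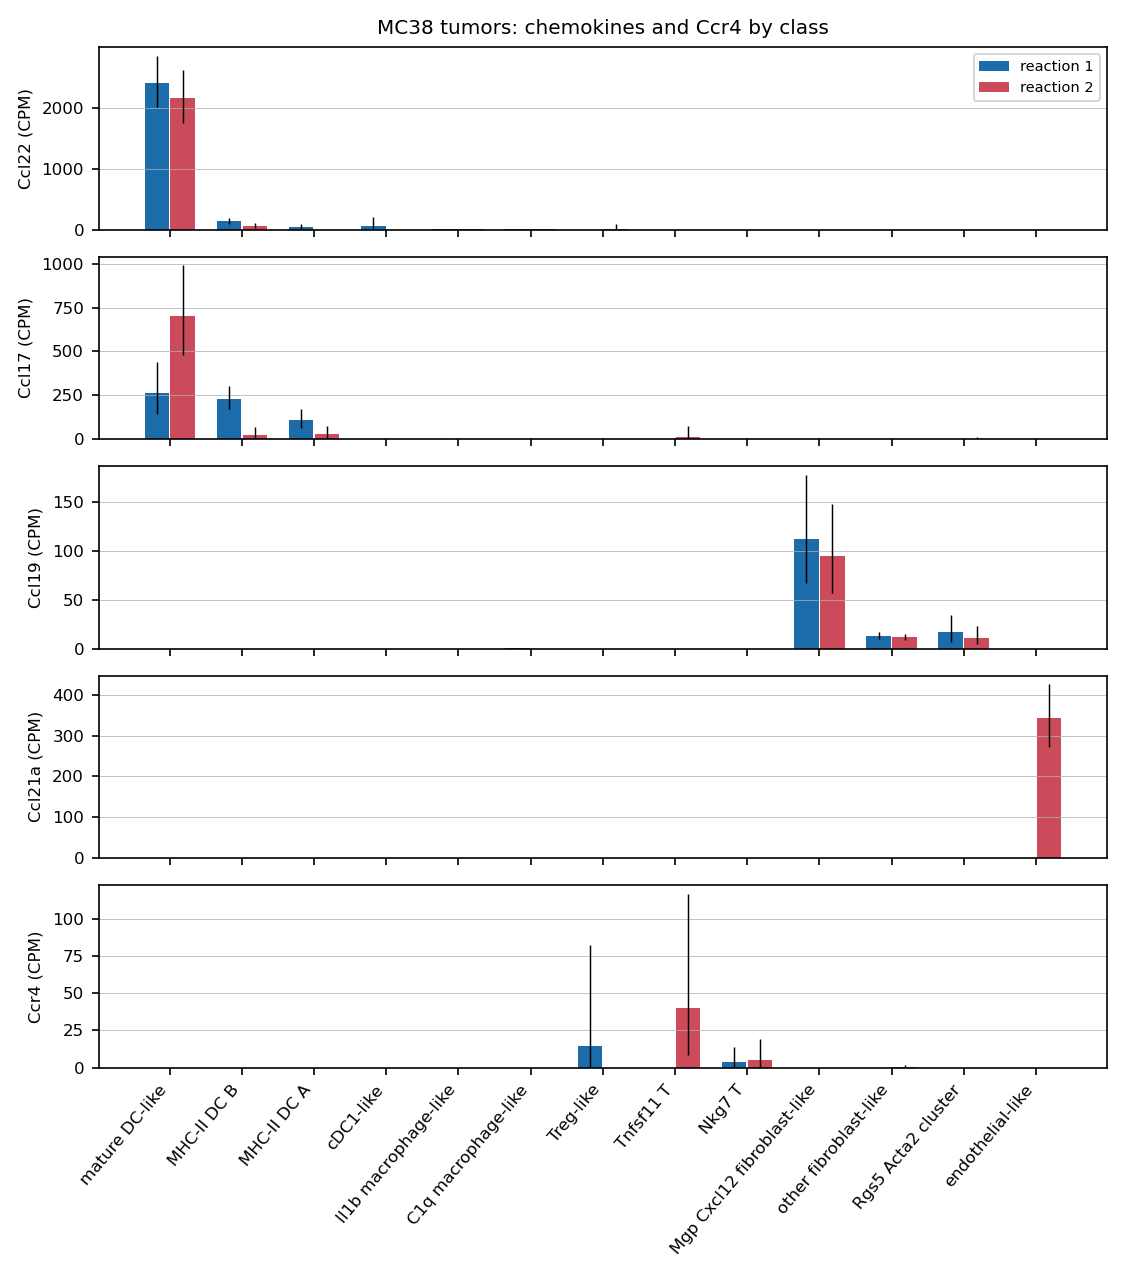
Level of Ccl22, Ccl17, Ccl19, Ccl21a, and Ccr4 (CPM, linear axes from 0, each with its own scale) in 13 classes of MC38 tumors. Bars are the sums of reaction 1 (blue) and reaction 2 (red) with exact 95% Poisson intervals where there was at least 1 UMI. Ccl22 is highest in mature DC-like cells at 2404 and 2153 CPM, Ccl17 also reaches the MHC-II DC clusters, Ccl19 is highest in Mgp Cxcl12 fibroblast-like cells, and Ccl21a appears in endothelial-like cells of reaction 2.

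The treatments were compared in MC38 tumors between sums per treatment and reaction. Barcodes with the CPI, isotype, and CPI + ABT-317 hashtags had medians of 2054 and 2551, of 5262 and 6991, and of 16598 and 19952 UMIs in the 2 reactions. Those with isotype + ABT-317 had medians of 16293 and 23956 UMIs. This difference in depth moved with treatment throughout, and its part in the results was not tested. In T-like cells, Ccr7 was at 32.1 and 15.5 CPM with CPI (19 and 7 UMIs in 499 and 383 barcodes) and at 143 and 58.6 CPM with isotype (5 and 1 UMIs in 28 and 15 barcodes). The isotype values were the higher ones in both reactions, but the counting intervals of the treatments overlapped in both. The make-up of the class differed as well, with 17 of 28 and 7 of 15 isotype barcodes in the Treg-like cluster against 27 of 499 and 26 of 383 with CPI. All Ccr7 UMIs of isotype T-like cells were Treg-like, and within the Treg-like cluster Ccr7 was at 223 and 57.1 CPM with CPI and 234 and 110 CPM with isotype, with overlapping intervals. The log2 difference of CPI minus isotype was -1.96 (SE 0.77, n = 2 and 2 sums, edgeR adjusted p = 0.476), where the median over all genes tested was 0.22. Ccr7, again the only gene of the 6 with enough UMIs, had an unadjusted edgeR p under 0.05. It was not among the 5 of 4273 genes (0.117%) that edgeR called. It passed the filter on low counts only through the isotype sums, where it was high, so that p value gives no support for a difference. DESeq2 called 10 genes (0.382%) but gave Ccr7 no adjusted p value, so it could not call the gene. The sums of a reaction come from 1 library, and with the reaction as a block edgeR called 25 genes, while Ccr7 differed by -1.88 (adjusted p = 0.365). At sums of this size 36.4% to 38.3% of simulated 4-fold changes were called. The treatment of most T-like barcodes depended on the hashtag call. The other call, by the lead, also took in barcodes with several hashtags, which the main sums left out as doublets. When a lead of 1 natural log unit was asked for instead, CPI had 99 and 60 barcodes and isotype 43 and 10, Ccr7 was at 37.0 and 7.24 CPM with CPI and at 43.0 and 290 CPM with isotype, and the difference was -2.67 (adjusted p = 0.159). The isotype sum of reaction 2, which held 19 Ccr7 UMIs in 10 barcodes, also held 10 UMIs of the mature DC gene Ccl22 (153 CPM), where each of the other sums by the lead held at most 1. Its part in the difference was not tested. CPI + ABT-317 then had 21 and 21 barcodes and differed from CPI by 0.90 (adjusted p = 0.724). By the call used here, T-like sums with ABT-317 had at most 9 barcodes and entered no test, and they held 0 Ccr7 UMIs in 12108 (CPI + ABT-317) and 559 (isotype + ABT-317).

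Mature DC-like cells had 7 and 7 barcodes with CPI and 8 and 7 with isotype, too few for a test. Their Ccr7 was at 2446 and 3609 CPM with CPI and at 1495 and 1138 CPM with isotype. The counting intervals overlapped in reaction 1 (1853 to 3170 against 1029 to 2099) and did not in reaction 2 (2946 to 4377 against 663 to 1821). Without the barcode with most Ccr7 in each sum, these became 2038 and 2441 against 1086 and 880 CPM. Ccl22 was at 2876 and 2628 CPM with CPI and 2492 and 1138 CPM with isotype. In reaction 2, 1 barcode held 62 of the 75 Ccl22 UMIs and 24 of the 29 Ccl17 UMIs of the CPI sum. Without the barcode with most Ccl22 in each sum, Ccl22 was at 1955 and 577 CPM with CPI and 1943 and 993 CPM with isotype, so the order turned in reaction 2. Ccl17 went in different directions in the 2 reactions, at 42.9 and 1016 CPM with CPI and 498 and 134 CPM with isotype. The single mature DC-like barcode with CPI + ABT-317 held 3 Ccr7, 6 Ccl22, and 1 Ccl17 UMIs. These labels too depended on the hashtag call, and the lead again took in barcodes with several hashtags. By the lead, CPI had 6 and 2 barcodes with 2011 and 1423 CPM of Ccr7, isotype had 4 in reaction 1 with 1443 CPM and none in reaction 2, and the intervals overlapped. CPI + ABT-317 then had 2 and 2 barcodes, with Ccr7 at 1299 and 3663 CPM and Ccl22 at 1251 and 3271 CPM.

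In fibroblast-like cells, Ccl19 was found with CPI, isotype, and CPI + ABT-317 in both reactions. It was at 17.5 and 14.6 CPM with CPI (55 and 47 UMIs), at 24.0 and 9.13 CPM with isotype (7 and 2 UMIs), and at 21.1 and 37.3 CPM with CPI + ABT-317 (2 and 9 UMIs). With isotype + ABT-317 it had 0 UMIs of 201383 in reaction 1, where 3 counts would be 14.9 CPM, and 2 UMIs in the 1 barcode of reaction 2. The level with CPI + ABT-317 was above that with CPI in both reactions, but the counting intervals overlapped in both, with 2.55 to 76.1 against 13.1 to 22.7 CPM and 17.1 to 70.8 against 10.7 to 19.4 CPM. Neither Ccl19 nor any other of the 6 genes had enough UMIs to be tested in fibroblast-like cells. Where hashtags were called by a lead of 1 natural log unit instead, Ccl19 was tested and had the opposite direction, lower with CPI + ABT-317 than with CPI (-1.22, edgeR adjusted p = 0.0188), and without a filter on low counts it differed by 0.80 (adjusted p = 0.666). Sums by the lead also held barcodes with several hashtags. CPI + ABT-317 then had 118 and 112 fibroblast-like barcodes, against 11 and 23 by the main call. In this class edgeR called 21.0% of 5230 genes for CPI minus isotype, 11.7% for CPI + ABT-317 minus CPI, and 0.249% for isotype + ABT-317 minus isotype, where the first group was 1 sum of 21 barcodes, assumed to vary like the others. The class held different clusters by treatment. The Mgp Cxcl12 cluster gave 61 of 803 and 62 of 649 CPI barcodes and none of the 41 and 21 with isotype, and it is named in part for Cxcl12. Its part in the differences below was not tested. Other chemokines of the pathway list did pass. With CPI, 3 of 3 tested were higher than with isotype, namely Ccl8, a ligand of CCR8 in mice (2.29, SE 0.28), Cxcl13, the B cell attractant (4.75, SE 0.85), and Cxcl12, the ligand of CXCR4 (1.66, SE 0.36). With hashtags called by the lead, Cxcl13 was at 0.66 (adjusted p = 0.334). The median of the 3 was 2.29, against -0.01 over all genes tested, of which 581 of 5230 were called higher with CPI. Of the 12 genes listed, only these 3 could be tested. A gene could pass the filter on low counts through the CPI sums alone, where these genes were high, so the count gives no independent support. Of 2 tested genes of lymph node entry and exit, Klf2 was higher with CPI (0.82, SE 0.24, edgeR adjusted p = 0.0119), with a median of -1.48, and no call was made among 3 tested genes of the lymphotoxin and noncanonical NF-κB list. Ccl8 was lower with CPI + ABT-317 than with CPI (-0.97, SE 0.26, edgeR adjusted p = 0.0124). Both comparisons share the CPI sums.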

How the data were processed

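The authors deposited, for each reaction, raw UMI counts of every gene in every barcode (Cell Ranger 3.1.0 with GRCm38 and mm10 per the submitters' processing notes, while the file headers name later releases that differ between the tissues), with no normalization. Gene UMIs totaled 127052825, 105259770, and 18055617 in TDLN reactions 1 to 3 and 435031691 and 377184807 in MC38 reactions 1 and 2. The members and lists were chosen with earlier results of these data known, although the rule itself reads no measured value.

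Barcodes with at least 200 genes and under 10% mitochondrial UMIs were kept, with no upper limit on genes, because a limit of 2500 genes kept 45.1% and 41.5% of MC38 barcodes. MC38 hashtags were tied to treatments by the key that accompanies the matrices. A hashtag was called at a posterior of 0.5 in a fit of 2 normal components on log counts (scikit-learn 1.9.0), and 14843 and 6996 MC38 barcodes with several hashtags were left out as doublets. The alternative sums by the hashtag lead did not leave these barcodes out. No doublet caller was run in TDLNs, where clusters mixing lineages were kept apart. Clustering per tissue used scanpy 1.11.5 and leidenalg 0.10.2 (2000 variable genes without the 6 members, 30 principal components, 15 neighbors, resolution 0.5). Names of clusters were set after the clusters had been seen. Intervals are exact Poisson (levels) or Clopper-Pearson (shares), from scipy 1.17.1, and a count of 0 was given a limit of 3 counts.

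Counts were summed per class and reaction, or per class, treatment, and reaction, sums under 10 barcodes were left out, and edgeR 4.0.16 (TMM, filterByExpr, quasi-likelihood test, R 4.3.3) was run on all genes, with DESeq2 1.42.0 as an alternative. Tissues were compared over the 31950 genes shared by identifier. By the key, the treatments of an MC38 reaction shared a library, which pairs their sums, and the reaction was a block in an alternative fit. The code was tested on simulated counts. Members were always named. For each member, the 5 genes with the highest Pearson correlation of log2(CPM + 10) over MC38 classes (genes with a mean of at least 5 CPM) were named, and genes of 3 lists (CCR7 and CCR4 pathway, lymphotoxin and noncanonical NF-κB, lymph node entry and exit) where they passed an adjusted p of 0.05 or were highest or lowest in their list. 1 gene of the last list is not reported here, and the counts and medians of that list are over the other genes.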

Additional observations from a re-analysis of the deposited data

Results flagged for a closer look

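Ccl21a was also found in MC38 barcodes that carried several hashtags and were left out of the main levels and comparisons. Among these, 3 barcodes had UMIs of at least 3 of the 6 lymphatic endothelial markers, and they held 26 Ccl21a UMIs in reaction 1 and 49 and 86 Ccl21a UMIs in reaction 2. They were singled out because the signal lies in data that were set aside and exceeds the limit of 3 counts. Their depths were 8236, 3676, and 29847 UMIs. The reaction 1 barcode was the only one of that reaction with more than 1 Ccl21a UMI. Whether these barcodes hold 1 cell or several was not tested.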

How the results depend on the processing

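Of 120 levels and counts recomputed under alternatives, 85 stayed within the spread or within 1.5 times. Of 44 fold changes of the 6 genes, 39 were counted as kept. These kept their direction and their side of the threshold or, where no test was run, lay within the SE of the main value. A gate on 3 mature DC marker genes in place of clusters took in 1888 and 2520 MC38 barcodes, in which Ccr7 was at 2.74 CPM (2358 by cluster), Ccl22 at 2.48 (2279), and Ccl17 at 0.457 (482), with Ccl19 at 0.0839, and under this gate Ccl22 was higher in TDLNs (3.57, adjusted p = 0.0237) and Ccr7 as well (7.89). Ccl22 in mature DC-like cells of tumors was 2018 CPM with several-hashtag barcodes kept. An alternative added after seeing the data, without the barcode with the most UMIs of these genes, gave 1658 CPM of Ccl22, left 1 of 2 members called between tissues, and left Ccl17 at -1.80 (adjusted p = 0.187).

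For T-like cells of TDLNs against tumors, 2463 calls became 1177 with DESeq2, 6848 with marker gates, and 3909 without a filter on low counts, and 1554 to 2679 when 1 reaction was left out. For Treg-like cells, 597 calls became 234 with DESeq2 and 9011 with gates (2 members called), and 230 to 344 with 1 reaction left out. For mature DC-like cells, 167 calls became 36 with DESeq2 (1 member called) and 7905 with gates. With 1 MC38 reaction left out, this fit has 1 sum a group and gives values only, from -3.42 to -1.96 for Ccl17 and from -2.57 to -2.44 for Ccl22.

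Among treatments, fibroblast-like CPI minus isotype gave 1096 calls, 499 with DESeq2, 64 with fewer than 2500 genes, and 2423 when hashtags were called by a lead of 1 natural log unit. CPI + ABT-317 minus CPI gave 614 calls, and 255, 5, and 3419 under the same settings, the last with 1 member called, Ccl19 (-1.22, adjusted p = 0.0188). Isotype + ABT-317 minus isotype gave 13 calls, 481 by lead, and 50 without a filter. T-like CPI minus isotype gave 5 calls, 10 with DESeq2, 31 by lead, 15 without a filter, and 25 with the replicate block. Treatment sums of the same reaction are paired by its library, and with this replicate block Ccr7 differed by -1.88 (adjusted p = 0.365). The block changed no call of a member. Without either reaction, Ccr7 was at -2.02 to -1.51, with no test. Tests under alternatives for mature DC-like cells by treatment were not run, since no sum had 10 barcodes. Their levels without the richest barcode, by the hashtag lead, and by reaction, and the ligand ratios by reaction, were also added after seeing the data. Ccl17, Ccl19, Ccl21a, and Ccr4 had few UMIs per class, and sequencing saturation was not tested.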

Other observations

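The 5 genes nearest to each member were taken across 29 classes of MC38 tumors. These correlations of log2(CPM + 10) describe classes that share 2 pooled reactions and differ in depth, and are given with no test. Ccr7 was most like Ccl22 (r = 0.833), Ccl17 (0.816), Tmem123 (0.809), H2-Eb2, an MHC class II gene (0.789), and Zc3h12d (0.776). Ccl22 was most like Mmp25, a membrane-type metalloproteinase (0.931), H2-Eb2 (0.930), Slc4a8 (0.918), Il4i1, an amino acid oxidase and marker of mature DCs (0.888), and Gm13546 (0.877). Ccl17 was most like Ccl22 (0.824), Ccr7 (0.816), H2-DMb2 (0.805), Klri1 (0.800), and Kynu, an enzyme of tryptophan breakdown (0.795).

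Ccl19 was most like its near copy Ccl19-ps2 (0.972), then Inmt (0.927), Pdgfrl (0.919), Mlana (0.917), and Gdf10 (0.914). Ccl21a came almost entirely from 1 class, so its nearest genes Sox17, Robo4, Myct1, Sox18, and Aplnr, which are endothelial genes, were those of that class. Ccr4, with 38 UMIs, was most like Csf2 (0.912), Krt83 (0.892), Ccr8 (0.869), Cd4 (0.865), and A430093F15Rik (0.863). The pairs Ccr7 and Ccl19 (-0.18) and Ccr7 and Ccl21a (-0.11), receptor and ligand, were not alike over classes. Ccr4 and its ligands Ccl17 (-0.05) and Ccl22 (-0.09) were not alike either.

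Within tumor classes, Ccr8, the receptor near Ccr4 in this list, was at 129 and 293 CPM in T cells led by Tnfsf11 (29 UMIs) and at 23.8 and 26.3 CPM in Nkg7 T cells (23 UMIs). The Treg-like class, where Ccr8 had enough UMIs to be tested between tissues, is not among these values, so they give no ranking of carriers. Mature DC-like cells of tumors held 40 UMIs of Map3k14 (354 and 461 CPM), 44 of Relb (354 and 549 CPM), and 48 of Cd40 (447 and 527 CPM), genes of noncanonical NF-κB signaling, and 0 UMIs of S1pr1.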
